A study of Coturnix japonica and Phalacrocorax auritus with 29 samples.

Results

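Messenger RNA of the cold-inducible RNA-binding proteins was followed in embryonic livers of Japanese quail (JQ, Coturnix japonica) and double-crested cormorant (DCCO). The family is represented by 2 protein names, cold_inducible_rna_binding_protein (CIRBP) and rna_binding_motif_protein_3 (RBM3), out of 22845 names in the JQ table and 21547 in the DCCO table. Both names are in both tables, but the filter on low counts passed both in DCCO and only CIRBP in JQ. They were selected on results of these data, above all on the lower CIRBP level of DCCO at the high dose against control. That contrast and the species differences that contain it are therefore given as descriptions, without a p-value.

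CIRBP and RBM3 are small, closely related proteins with an RNA recognition motif and a glycine-rich tail. In mammalian cells both are induced by mild cooling, and they bind messenger RNAs and change their stability, translation and polyadenylation. CIRBP is also known there to respond to hypoxia, ultraviolet light and oxidative stress, to enter stress granules, to bind transcripts of the circadian clock and, once released from cells, to act on the receptor TLR4. RBM3 is known mainly for raising protein synthesis and protecting cells in the cold.

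Eggs received their dosing solution in the air cell before incubation at 37 °C. Controls were given the solvent DMSO and the exposed eggs a medium or a high dose of chlorpyrifos, an organophosphate insecticide that inhibits cholinesterase. The labels list 0.4, 4 and 40 µg per g of egg as nominal doses, without tying a value to a group name, and state that preliminary mortality of each species set the high dose. The 15 JQ livers, 5 in each group, were of embryo day 9, except control replicate 5, which is labelled day 16. The 14 DCCO livers, 4 control, 5 medium and 5 high, were of day 16, so species and stage cannot be told apart.

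Totals ran from 11548222 to 27778954 counts per library in JQ and from 9890108 to 21976904 in DCCO. All 11 hepatocyte markers had reads in every library. In the DCCO columns the controls carry another name prefix than every exposed library, so that prefix and exposure cannot be told apart. In DCCO, 1 control has no replicate number that matches the labels and is called the unnumbered control. Control 1 and high dose replicate 1 of DCCO carry a number in the column name, 6, that the other DCCO libraries do not have. Levels are CPM, read counts relative to the library total after TMM scaling (a correction for library composition), with SD over libraries. A feature counted as changed where the p of edgeR's quasi-likelihood test, adjusted by Benjamini-Hochberg over every feature tested, was under 0.05.

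CIRBP was lower in every exposed DCCO liver than in any DCCO control. The controls had 277, 222, 271 and, in the unnumbered control, 254 CPM, a mean of 256 ± 24.8 (SD, n = 4). The medium dose livers had 183, 175, 179, 174 and 191 CPM, a mean of 180.5 ± 6.81 (SD, n = 5). The high dose livers had 158, 146, 160, 170 and 195 CPM, a mean of 166 ± 18.2 (SD, n = 5). Neither exposed group overlapped the controls, while 1 of the 5 high dose livers lay above all medium dose livers and the other 4 below all of them. Each of these values rests on 1947 to 4273 reads. In CPM of the plain library total, without TMM, the controls had 225 to 274 and the exposed livers 142 to 197, and these ranges did not overlap either.

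**Figure D1:**
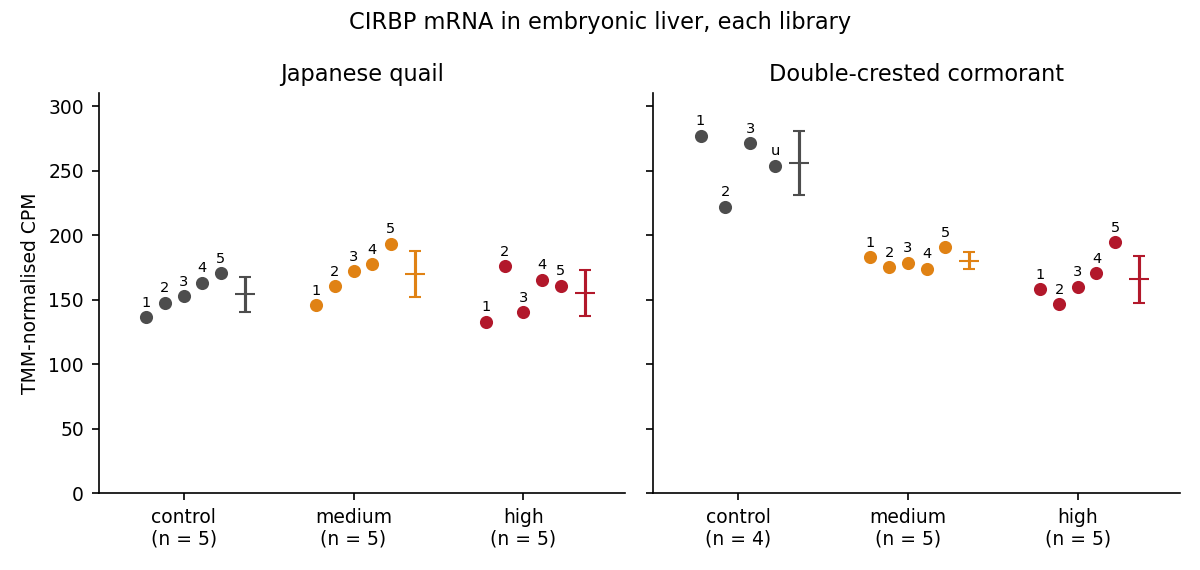
CIRBP level in each library as TMM-normalised CPM (y axis, from 0) by dose group (x axis) in JQ and DCCO. Points are libraries with their replicate number (u is the unnumbered control), and bars to the right of each group are the mean ± SD. The 4 DCCO controls lie at 222 to 277 CPM, above all 10 exposed DCCO livers at 146 to 195 CPM, whereas the 3 JQ groups overlap. The DCCO values include the contrast that chose the gene.

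At the medium dose the DCCO mean was 70.4% of the control mean. The log2 fold change was -0.51 ± 0.10 (SE), with a 95% interval of -0.72 to -0.29, and all 5 livers lay below every control. The unadjusted p was 0.000126, but edgeR's adjusted p over 14579 features was 0.131, so CIRBP was not called. In this comparison 7 features were called (0.048%), and 1.06% of all features had every medium dose liver below every control. DESeq2, a second count test, gave -0.51 with an adjusted p of 0.000224, while the other alternatives gave adjusted p of 0.0646 to 0.365. The comparison shares its 4 control libraries with the one on which CIRBP was chosen, so it is not independent of that choice.

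At the high dose the DCCO mean was 64.8% of the control mean and the log2 fold change -0.63 ± 0.10 (SE). This contrast chose the gene and carries no test here. It called 5 features (0.0343%), and 0.556% of all features had every high dose liver below every control. The fold change lay between -0.69 and -0.57 in all 21 alternatives, the latter without control 1 and high dose replicate 1. Between the high and the medium dose, a contrast between exposed livers that shares the high dose libraries with the one that chose the gene, the log2 fold change was -0.12 ± 0.10 (SE), with a 95% interval of -0.32 to 0.08 and an adjusted p of 0.9996 in edgeR's test. No feature was called in that comparison (0%; 475 at an unadjusted p under 0.05, and 4 called by DESeq2).

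CIRBP in JQ showed no such gap. The controls had 136, 148, 153, 163 and 171 CPM, a mean of 154 ± 13.3 (SD, n = 5). The medium dose livers had 146, 161, 172, 177 and 193 CPM, a mean of 169.8 ± 17.9 (SD, n = 5), and the high dose livers had 133, 176, 140, 165 and 161 CPM, a mean of 155 ± 18.0 (SD, n = 5). The 3 groups overlapped, with 1 high dose liver above and 1 below all controls, and 3 medium dose livers above all controls. The highest control, at 171 CPM, is the library labelled day 16.

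The JQ log2 fold change of CIRBP at the high dose was 0.01 ± 0.10 (SE), with a 95% interval of -0.20 to 0.22 and an adjusted p of 0.979 by edgeR. The lower bound corresponds to a change of -13.1%. Its sign turned in 5 of the fits that left out 1 library, down to -0.0404, and without the library labelled day 16 it was 0.049. Of all features tested, 3.56% were called in this comparison. At the medium dose the value was 0.14 ± 0.10 (SE; adjusted p 0.999), where edgeR called no feature (0%; 646 at an unadjusted p under 0.05, and 6 called by DESeq2), and without the library labelled day 16 it was 0.18. Between high and medium dose it was -0.13 ± 0.10 (SE; adjusted p 0.636), and 1.89% of features were called.

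Summed levels of markers of liver and other tissues moved with the high dose in JQ. The 11 hepatocyte markers summed to 222000 to 268000 CPM in controls and 113000 to 206000 at the high dose, without overlap. Of all features, 2.2% had every high dose liver below every control. A sum mainly reflects the most abundant markers, ALB with 1472510 to 4838563 reads per JQ library against 249 to 1784 for HNF4A. EdgeR called 0 of the 11, where 3.56% of all features were called, and 3 had a log2 fold change above 0. Bile duct markers, with 5 or 6 of 6 detected, summed to 134 to 224 CPM in controls and 196 to 325 at the high dose. Kidney markers, with 1 to 4 of the 5 in the table detected in these groups, summed to 2 to 5.35 CPM in controls and to 11.5 to 32.7 in 4 high dose livers, and reached 1260 in high dose replicate 1. Without that library the CIRBP change was 0.0599, and the part of the other marker shifts in the JQ values, the gene lists included, was not tested.

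**Figure D2:**
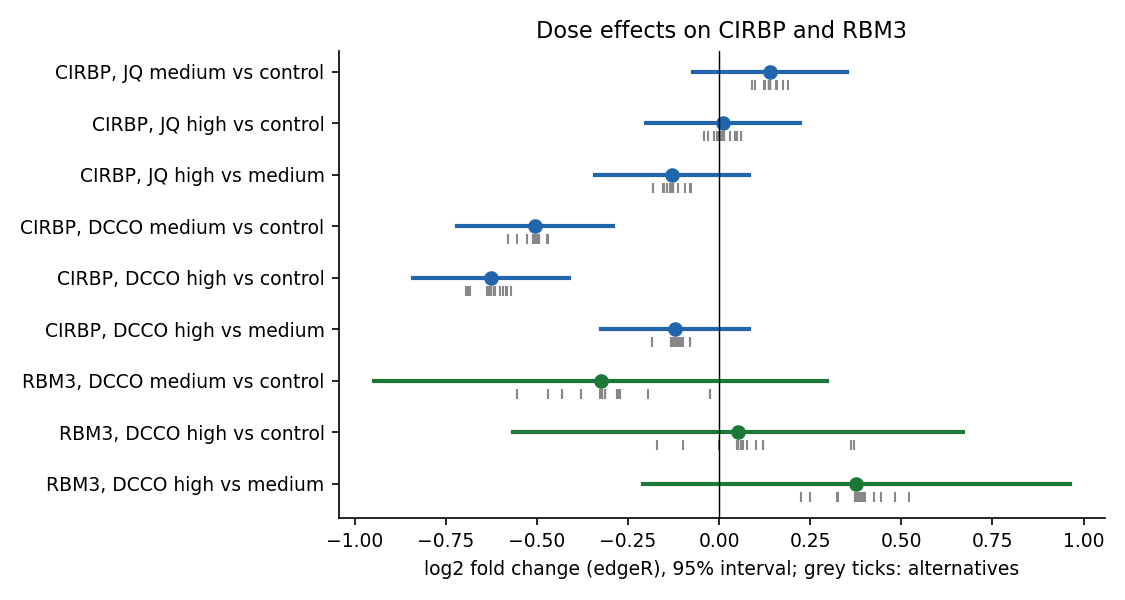
Log2 fold changes from edgeR (x axis) of CIRBP and RBM3 in each comparison (y axis), as points with the 95% interval; grey ticks are the values under the alternatives. The CIRBP interval of DCCO at the medium dose runs from -0.72 to -0.29, and the JQ and RBM3 intervals include 0; the high dose values in DCCO are shown as a description, since that contrast chose the gene.

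Both species were fitted jointly on 15596 names that the tables share. The log2 fold change of CIRBP at the high dose against control was higher in JQ than in DCCO by 0.63 ± 0.14 (SE). The fold change at the medium dose against control, looked at after the data were seen, was higher in JQ by 0.64 ± 0.14. The high dose difference stayed between 0.58 and 0.71 under all its alternatives, which include leaving out each library of the 4 groups. Both values contain the DCCO controls that chose the gene, and they are descriptions. The labels tie no dose value to a group name, and preliminary mortality of each species set its high dose. Doses with the same name therefore need not match between species. Species, stage and, in DCCO, the column prefix of the controls cannot be told apart in these values. The tables were normalised separately and count reads against protein names of many birds, so the 154 CPM of JQ controls and the 256 CPM of DCCO controls are not compared as levels.

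The SD of log2 CPM of CIRBP within groups was 0.15 in JQ and 0.12 in DCCO. Among the 501 features of most similar mean level, the median SD was 0.19 in JQ and 0.20 in DCCO, and 68.3% and 88.0% varied more. CIRBP was chosen on a DCCO contrast, and such a choice favours features with a small spread. The DCCO value is therefore a description. The summed level of erythroid markers, genes of the red cell lineage, had a higher mean in exposed DCCO livers than in controls. It was 40.7 to 96.2 CPM in controls, 82.9 to 141 at the medium dose and 80.3 to 189 at the high dose, with 6 or 7 of the 7 markers in the table detected and groups that overlap. EdgeR called 0 of the 6 tested at the medium dose, where 0.048% of all features were called. This sum mainly reflects SLC4A1, with 305 to 2473 reads per DCCO library against 74 to 459 for GATA1. Kidney markers, with 1 to 4 of the 4 in the table detected, summed to 38.5 to 265 CPM in DCCO controls. Their sums were 25.2 to 69.7 at the medium and 52.6 to 99.4 at the high dose, and these groups overlap too. Hepatocyte markers summed to 106000 to 190000 CPM in controls and 116000 to 174000 in exposed livers. In bulk tissue fewer cells of a type and less RNA per cell cannot be told apart, and the part of cell composition in the CIRBP level was not tested.

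RBM3 had few reads in DCCO, 38 to 102 per library, and showed no difference between doses beyond its spread. The controls had 8.38, 2.80, 4.70 and, in the unnumbered control, 5.43 CPM, a mean of 5.33 ± 2.31 (SD, n = 4). The medium dose livers had 3.57, 5.41, 3.65, 2.70 and 5.94 CPM, a mean of 4.25 ± 1.36, and the high dose livers 5.25, 4.46, 5.31, 4.78 and 7.88 CPM, a mean of 5.54 ± 1.35 (SD, n = 5 each). The control range covered every high dose liver and 4 of the 5 medium dose livers. The highest control is control 1 and the highest exposed liver is high dose replicate 5.

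The log2 fold change of RBM3 in DCCO at the medium dose was -0.33 ± 0.29 (SE), with a 95% interval of -0.95 to 0.30 and an adjusted p of 0.893 by edgeR. Without control 1 it was -0.02, and without control 2 it was -0.55. Between high and medium dose it was 0.38 ± 0.28 (SE; adjusted p 0.9996). At the high dose against control the value was 0.05 ± 0.29 (SE), given without a test. It became -0.17 without control 2, -0.10 without high dose replicate 5 and 0.36 without control 1. Its interval ran from -0.57 to 0.67. The medium dose interval holds the -0.51 of CIRBP at that dose, so an RBM3 change of that size was not excluded there. The SD of RBM3 within groups was 0.47 on the log2 scale, above the median of 0.34 among the 501 features of most similar level.

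**Figure D3:**
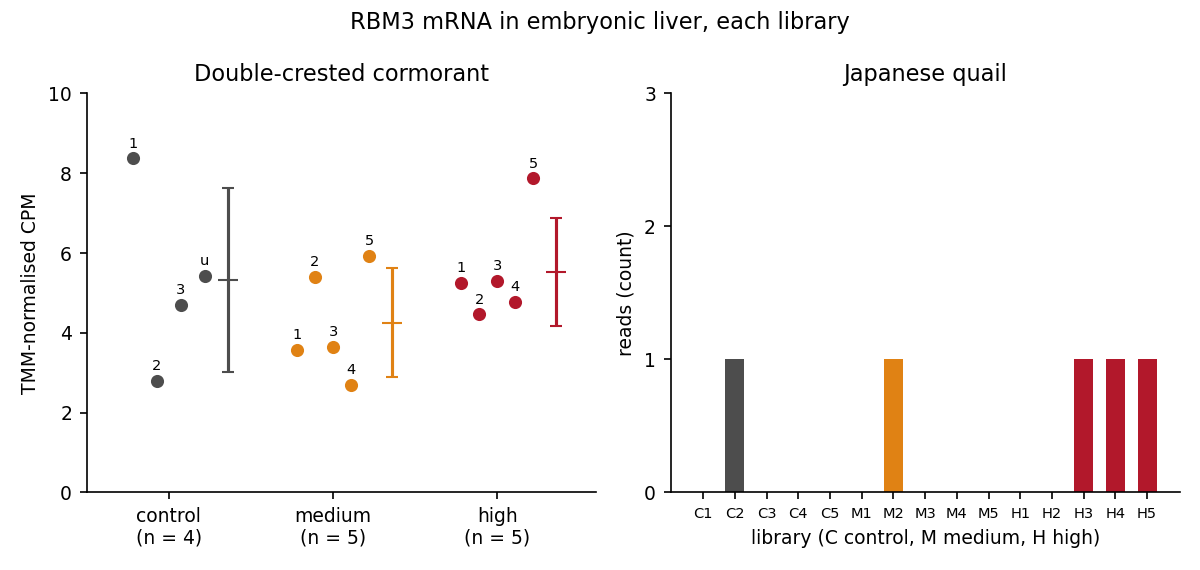
RBM3 in DCCO as TMM-normalised CPM in each library (left; points with replicate numbers, bars mean ± SD) and in JQ as the number of reads in each library (right; bars from 0). DCCO libraries range from 2.70 to 8.38 CPM with overlapping groups, and no JQ library has more than 1 read.

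In JQ, RBM3 had 5 reads in 5 of the 15 libraries, 1 each, out of 294286496 counts. This is 0.017 CPM, with an exact 95% Poisson interval of 0.00552 to 0.0396 that covers counting error only. Of these reads 1 was in a control, 1 in a medium dose and 3 in high dose livers, and no comparison is given. In DCCO the name held 987 reads, or 4.84 CPM over all libraries. The tables also hold the name rna_binding_protein_3_like, chosen here after its values were seen, which had 13 reads over all JQ libraries and 9723 in DCCO. Its DCCO groups overlapped, at 47.9 ± 11.4 CPM in controls, 46.4 ± 6.50 at the medium and 50.65 ± 5.05 at the high dose (SD, n = 4, 5 and 5). Counting by protein name may divide the reads of related proteins between names, so how these names, and CIRBP, share their reads is uncertain.

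CIRBP and RBM3 levels of the 14 DCCO libraries had a Pearson r of 0.26 on log2 CPM, and 0.0061 to 0.40 with each library left out. After subtraction of group means r was 0.73, with 0.63 to 0.79 on leaving out each library. This value depended on the scaling: with library totals in place of TMM, an alternative added after seeing the data, r was 0.17, and 0.0318 without subtraction of group means. Control 1, with the highest RBM3 level of the controls, is the highest control for CIRBP with TMM (277 CPM) and the lowest without it (225 CPM). RBM3 and the name rna_binding_protein_3_like had an r of 0.71 over all libraries and 0.70 with group means subtracted, and of 0.51 and 0.49 without TMM. These correlations share libraries and depth and are descriptions.

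The features whose levels resembled CIRBP most were named by r over all libraries of a species, among features with a mean log2 CPM of at least 2. In DCCO the second to the fifth highest among 9701 were the splicing factor SRSF5 (0.87), histone H1.01 (0.86), the proprotein convertase PCSK7 (0.85) and the transcription factor SP2 (0.85). The lowest were RSRP1, a nuclear protein rich in arginine and serine (-0.93), and the co-chaperones DNAJA4 (-0.92) and BAG3 (-0.92). The groups differ in CIRBP, so these values hold the difference between control and exposed libraries itself. Without TMM the r of the first 4 were 0.84 to 0.87 and those of the last 3 -0.81 to -0.70.

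SRSF5 had 130 ± 23.9 CPM in DCCO controls, 74.2 ± 3.41 at the medium and 86.4 ± 6.85 at the high dose, and histone H1.01 (histone_h1.01) 25.9 ± 3.61, 16.2 ± 2.62 and 13.9 ± 2.87 CPM (SD, n = 4, 5 and 5 throughout). In the opposite direction, BAG3, a partner of HSP70 chaperones, had 6.24 ± 1.04, 8.71 ± 0.495 and 10.6 ± 1.35 CPM. RSRP1 (arginine_and_serine_rich_protein_1) had 6.03 ± 1.38, 15.7 ± 1.43 and 24.3 ± 3.90 CPM. Every medium dose liver was below every control for SRSF5 and histone H1.01, as for CIRBP, and above every control for BAG3 and RSRP1. Of all features, 1.06% had every medium dose liver below and 1.36% above every control. These genes were picked by their r with CIRBP over the same libraries, so their separation follows largely from that choice. The JQ log2 fold changes at the high dose were 0.23 ± 0.19 (SE) for SRSF5, 0.28 ± 0.46 for histone H1.01, 0.06 ± 0.16 for BAG3 and -0.74 ± 0.45 for RSRP1. Histone H1.01 was low in JQ, at 0.461 ± 0.291 CPM in controls and 0.562 ± 0.259 at the high dose (SD, n = 5 each).

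**Figure D4:**
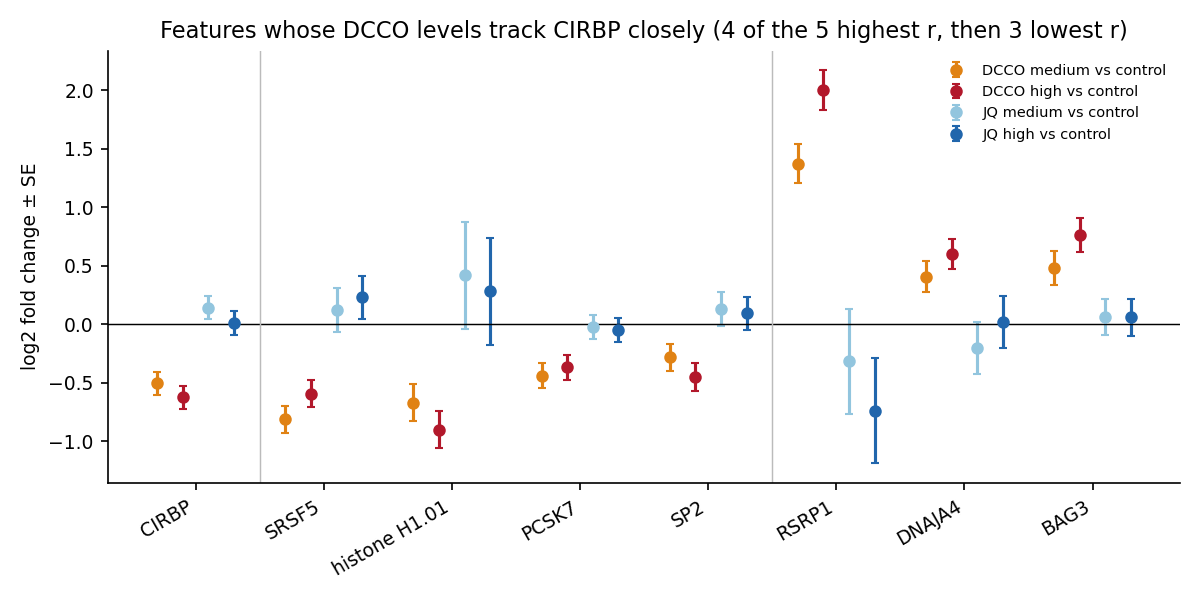
Log2 fold change ± SE from edgeR (y axis) against control for CIRBP and for 4 of the 5 features with the highest and the 3 with the lowest correlation to it over the DCCO libraries (x axis), in both doses and species (colours). The first 4 lie below 0 in DCCO at both doses, like CIRBP, and the last 3 above 0, up to 2.003 for RSRP1 at the high dose; JQ values do not follow this order, with 0.23 for SRSF5 and -0.74 for RSRP1 at the high dose.

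With group means subtracted, the DCCO features closest to CIRBP were KIF9 (0.93), TLE1 (0.88), TNNI3 (0.87), occludin (0.86) and the pseudokinase PRAG1 (0.86), none of which was among the 5 highest over all libraries. Without TMM their r lay between 0.40 for TNNI3 and 0.74 for TLE1. In JQ over all 15 libraries they were the spliceosome protein SNRPE (0.83), the RNA helicase DDX1 (0.81), the splicing regulator TRA2B (0.80), the vesicle protein YKT6 (0.79) and SERF2 (0.79), and the lowest were PPM1E (-0.82), MPP5 (-0.82) and PPP1R13B (-0.81), the last 2 at -0.48 and -0.34 without TMM. With JQ group means subtracted the second to the fifth highest were PCIF1 (0.88), DDX1 (0.88), DEDD (0.85) and DNTTIP1 (0.84). For RBM3 in DCCO they were glutathione S-transferase 2 (0.87), ephrin A3 (0.85), fatty acid desaturase 6 (0.83), glutathione peroxidase 1 (0.83) and RAC2 (0.83), and the lowest were RBM26 (-0.89), ANP32A (-0.85) and GTF3C3 (-0.85). With group means subtracted they were POLR2C (0.89), glutathione peroxidase 1 (0.87), glutathione S-transferase 2 (0.87), ADI1 (0.87) and RAC2 (0.86). Without TMM, RAC2 had 0.29 over all libraries and 0.35 with group means subtracted, and ADI1 0.53. Each r named here is an extreme among 9618 features in JQ or 9701 in DCCO, over 15 or 14 libraries. How large such extremes run among unrelated features was not tested.

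Other cold shock and related RNA-binding proteins were counted from a list of 21 genes, of which 17 were tested in JQ and 16 in DCCO. In JQ 0 of 17 were called at either dose, where 3.56% of all features were called at the high and 0% at the medium dose, and the median log2 fold change at the high dose was -0.01 against 0.01 over all features. Among the 3 smallest p at the high dose were the let-7 inhibitor LIN28A (-0.85 ± 0.415 SE, adjusted p 0.326) and RBMS1 (-0.13 ± 0.09, 0.512), by edgeR. LIN28A was low in JQ, at 0.798 ± 0.25 CPM in controls and 0.449 ± 0.279 at the high dose (SD, n = 5 each). In DCCO at the medium dose 1 of 16 was called, the splicing factor SRSF5, which fell by 0.81 ± 0.11 (SE, log2; adjusted p 0.00648 by edgeR), and 0 rose. Features called lower made up 0.0343% of all in this comparison. The list was drawn up with earlier results of these data known, so its count is a description and no test of the list. The list's median there was 0.07 against -0.01 over all features. RBM38, a regulator of messenger RNA stability, followed with 1.04 ± 0.37 (adjusted p 0.729), and SFPQ, a nuclear splicing factor, with 0.21 ± 0.095 (0.848).

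Genes reported upstream of CIRBP and RBM3, and enzymes and carriers that act on them, formed a list of 23, of which 20 were tested in each species and none was called in any tested comparison. Over all features the shares called were 3.56%, 0% and 1.89% in JQ (high and medium dose against control, and high against medium) and 0.048% and 0% in DCCO (medium dose against control, and high against medium), so a count of 0 among 20 is near the background. The list holds heat shock and hypoxia factors, temperature-gated channels, kinases of splicing factors and nuclear import receptors. HSF1, the main heat shock factor, had log2 fold changes of -0.26 and -0.40 in JQ at the high and medium dose and 0.03 in DCCO at the medium dose. TRPV4, a warmth-gated cation channel known in mammals to act upstream of CIRBP and RBM3, had 16.1 ± 12.4 CPM in JQ controls and 2.45 ± 1.58 at the high dose (SD, n = 5 each). Its log2 fold change of -2.73 ± 0.84 (SE) had an adjusted p of 0.0941 in edgeR and was called by DESeq2 (0.0211) and without medium dose replicate 2 (0.0269). CLK4, a kinase of SR splicing factors that belongs to a temperature-sensitive family, had 27.0 ± 2.97 CPM in DCCO controls, 35.8 ± 6.48 at the medium and 43.0 ± 1.40 at the high dose (SD, n = 4, 5 and 5), with a medium dose fold change of 0.41 ± 0.12 (adjusted p 0.541). In JQ its value at the high dose was -0.32 ± 0.13 (adjusted p 0.209). The other members among the 3 smallest p were the kinase subunit CSNK2A1 in JQ at the high dose (0.18 ± 0.07, 0.176) and, in DCCO at the medium dose, the import receptor TNPO1 (0.29 ± 0.12, 0.848) and TRPV4 (0.60 ± 0.28, 0.859). Between high and medium dose in JQ the hypoxia factor EPAS1 had 0.51 ± 0.14 (0.0902) and was called by DESeq2 (0.0207) and without high dose replicate 1 (0.0212).

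Reported targets, partners and receptors formed a list of 25 with 19 tested in each species, and none was called, against 3.56% of all features in JQ at the high dose and 0.048% in DCCO at the medium dose. The smallest p in DCCO at the medium dose belonged to VEGFA (-0.33 ± 0.13 SE, adjusted p 0.826 by edgeR). It was followed by the cell cycle inhibitor CDKN1B (0.26 ± 0.145, 0.874) and the replication protein RPA2 (0.16 ± 0.10, 0.879). In JQ at the high dose the smallest belonged to the prostaglandin synthase PTGS2 (0.71 ± 0.29, 0.223), the poly(A)-binding protein PABPC1 (0.27 ± 0.12, 0.291) and CDKN1B (0.27 ± 0.13, 0.330). TLR4, the receptor of extracellular CIRBP, had -0.965 ± 0.40 in JQ at the medium dose (adjusted p 0.999). It is also 1 of the 7 macrophage markers, of which 0 were called and 0 had a log2 fold change above 0 there. Their median was -0.69, against 0.01 over all features, and the part of cell composition in the TLR4 value was not tested. Of the 24 circadian clock genes, 22 were tested in JQ and 21 in DCCO, and none was called, beside the same shares of all features. NR1D1 and NR1D2, repressors of the clock, had -0.96 ± 0.31 and -0.48 ± 0.11 in DCCO at the medium dose (adjusted p 0.6254 and 0.263), and DESeq2 called NR1D2 (0.0248). The activator ARNTL2 had 0.48 ± 0.17 (0.712) there. In JQ at the high dose the clock output factor DBP had 1.45 ± 0.42 (adjusted p 0.0752) and was called without high dose replicate 2 (0.0116), as was the clock repressor CRY1 (-0.23 ± 0.09 and 0.205 with all libraries, -0.31 and 0.0330 without that replicate). TEF, related to DBP, had 0.65 ± 0.22 (0.122).

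Some heat shock proteins rise on warming, as the cold-inducible proteins rise on cooling. Of a list of 30 heat shock proteins and co-chaperones, 28 were tested in JQ and 27 in DCCO. None was called by edgeR with all libraries, where 3.56% of all features were called in JQ at the high dose and 0.048% in DCCO at the medium dose. In DCCO at the medium dose BAG3 had a log2 fold change of 0.48 ± 0.15 (SE) and DNAJA4 of 0.41 ± 0.13 (adjusted p 0.545 and 0.603), while the endoplasmic chaperone HSPA5 had -0.34 ± 0.12 (0.740). In JQ at the high dose DNAJB9, also of the endoplasmic reticulum, had -0.43 ± 0.15 (0.144) and was called without high dose replicate 2 (0.0357). HSPA4 (0.18 ± 0.07, 0.229) and DNAJA2 (0.16 ± 0.07, 0.261) came next. The list's median was 0.05 in JQ at the high dose and -0.01 in DCCO at the medium dose, against 0.01 and -0.01 over all features.

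Stress kinases, the unfolded protein response and growth arrest genes formed a list of 21, with 15 tested in JQ and 17 in DCCO. In JQ at the high dose 1 of 15 rose and 2 fell, where 2.12% of all features were called higher and 1.44% lower. This list too was drawn up with earlier results of these data known, so the counts are descriptions. GADD45A, a growth arrest and DNA damage gene, rose from 10 ± 0.609 to 17.6 ± 2.45 CPM (SD, n = 5 each), by 0.81 ± 0.11 (SE, log2; adjusted p 0.00108 by edgeR). EIF2AK2, the kinase PKR that senses double-stranded RNA, fell by 1.23 ± 0.24 (adjusted p 0.0107), from 11.6 ± 5.91 to 4.96 ± 0.295 CPM. Without the control labelled day 16 it fell by 0.86. ATF4, a transcription factor of the integrated stress response, fell by 0.62 ± 0.15 (adjusted p 0.0335), from 236 ± 42.7 to 154 ± 29.3 CPM. ATF4 was no longer called, with adjusted p of 0.0534 to 0.0943, without any 1 of controls 1, 2 and 4 or of the high dose livers 1, 3, 4 and 5.

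Between high and medium dose in JQ, GADD45A was higher by 0.62 ± 0.11 (SE, log2; adjusted p 0.00917 by edgeR) and GADD45B fell by 1.10 ± 0.22 (0.0171), from 5.45 ± 1.47 to 2.54 ± 0.656 CPM (SD, n = 5 each). In that comparison 1.38% of all features were called higher and 0.509% lower. Both calls were lost in a fit of these groups alone (0.62 and -1.11, adjusted p 0.0566 and 0.0587). None of the 17 members tested in DCCO was called, where the share of all features was 0.048% at the medium dose and 0% between high and medium dose. The smallest p there at the medium dose belonged to CHAC1, a glutathione-degrading enzyme of the amino acid stress response, with 6.38 ± 3.36 CPM in controls and 1.31 ± 0.332 at the medium dose (SD, n = 4 and 5). Its log2 fold change was -2.29 ± 0.42 (SE; adjusted p 0.0713), and it was called by DESeq2 (0.000118), without the unnumbered control (0.0104) and without high dose replicate 1 (0.0333). GADD45A had -0.71 ± 0.21 (0.541) and DDIT3, a transcription factor of the unfolded protein response, -1.50 ± 0.56 (0.762).

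**Figure D5:**
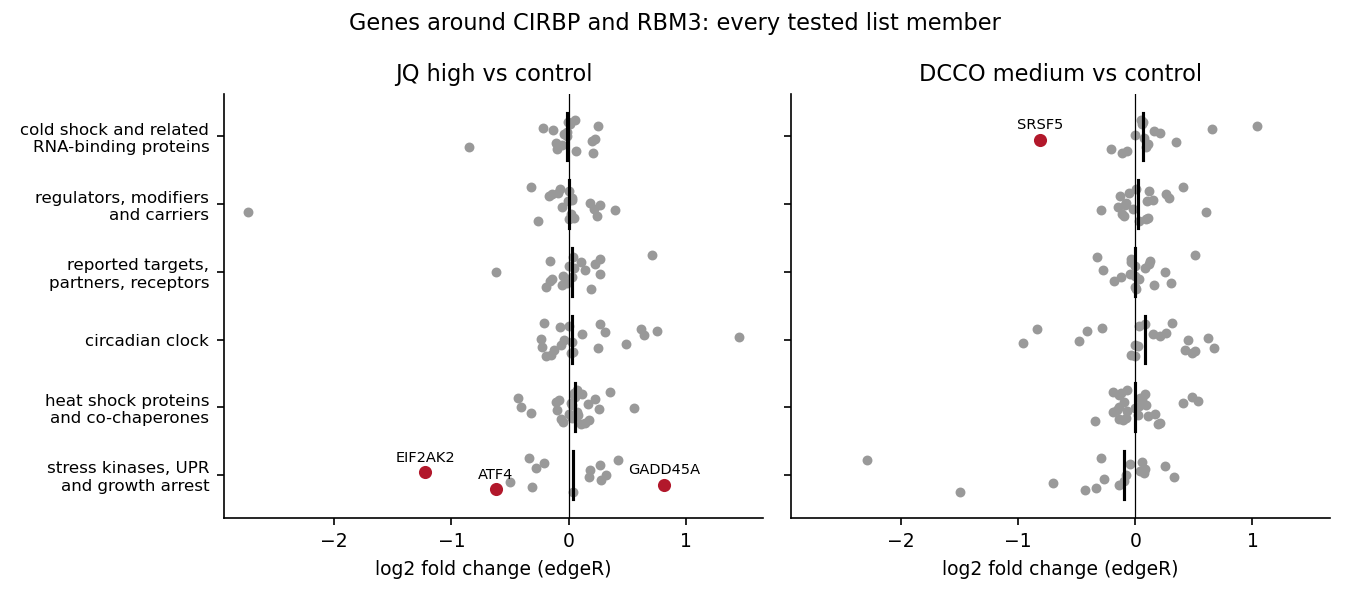
Log2 fold change from edgeR (x axis) of every tested member of the 6 lists (y axis) in JQ at the high dose and DCCO at the medium dose, each against control. Grey points were not called, red points with names were called, and black bars are list medians. SRSF5 is the called member in DCCO and GADD45A, EIF2AK2 and ATF4 are those in JQ; list medians lie between -0.09 and 0.08.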

How the data were processed

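The authors deposited, for each species, whole-number read counts per protein name, which the labels' table names tie to Seq2Fun and a database of all birds. The submitters' processing notes list edgeR, without a role. Read settings, the database version and a genome build were not stated in these sources, and no coordinates or sequences are printed. Columns were assigned to groups by the letters H and M, with S as the letter left for controls. Counts were fitted in R 4.3.3 with edgeR 4.0.16 (TMM, filterByExpr at a count of 10 and a total of 15, robust quasi-likelihood), all libraries of a species together, over 14927 features in JQ and 14579 in DCCO. The SE was derived from edgeR's F statistic. Libraries are labelled as individual livers, with no clutch or batch given. The p-values set differences between groups against the spread between these livers only, and cannot take clutch or batch into account. Scripts were tested on simulated data. Alternatives were relative log expression factors, no filter, DESeq2 1.42.0, limma voom (limma 3.58.1), a replicate block, a fit of just the groups compared, leave-one-out and, added after seeing the data, a fit without both libraries with number 6, the medium dose species difference and correlations without TMM. Replicate numbers were not taken as pairs, and whether they pair the DCCO libraries was not settled. CPM for correlations used a prior count of 2. The members and gene lists were chosen with earlier results of these data known. The rule for named list genes took those called or among the 3 smallest p of their list, and the text gives them mainly for JQ at the high and DCCO at the medium dose; features like a member were the 5 highest and 3 lowest r (5 highest with group means subtracted). Some features that this rule names are not reported here.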

Additional observations from a re-analysis of the deposited data

Results flagged for a closer look

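The members, the features most like CIRBP in DCCO and the called list genes made up 45 groups of 4 or 5 libraries. Levels of some of these groups are not given in the text. Of the 45, 5 held a library far from the rest of its group, where chance alone marks about 1 group in 20. Many of these features were picked for their r with CIRBP over the same libraries, so the groups are not independent. RBM3 in DCCO high dose replicate 5 was at 7.88 CPM, against 4.46 to 5.31 in the other high dose livers. SRSF5 in DCCO medium dose replicate 1 was at 80.2 CPM, with the group's lowest at 72.0. SP2 in DCCO high dose replicate 3 was at 8.35 CPM, with the group's highest at 11. RSRP1 in DCCO medium dose replicate 3 was at 13.3 CPM, with the group's highest at 16.9. EIF2AK2 in JQ control replicate 5, the library labelled day 16, was at 21.8 CPM, with the group's lowest at 7.23.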

How the results depend on the processing

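The direction of CIRBP in DCCO against control and its difference between species held in all 21 alternatives of each. For CIRBP in DCCO at the medium dose, DESeq2 moved the adjusted p under the threshold (log2 fold change -0.51, adjusted p 0.000224). With 1 library left out, CIRBP in JQ at the high dose ran from -0.0404 to 0.0599 and was negative without control 1 (-0.0314), control 2 (-0.0056) and high dose replicates 2 (-0.0404), 4 (-0.0138) and 5 (-0.0035). RBM3 in DCCO at the high dose ran from -0.17 to 0.36, negative without control 2 (-0.17) and high dose replicate 5 (-0.10). RBM3 did not pass the filter in JQ, where no group had more than 3 of its reads, and no JQ fold change is given with or without the filter. The species difference was computed for CIRBP only.

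Counts of called features moved more. DESeq2 called 974, 6 and 614 features in JQ (high against control, medium against control, high against medium) and 62, 54 and 4 in DCCO, against 531, 0, 282, 5, 7 and 0 by edgeR. With 1 library left out they ran from 303 to 659, 166 to 391, 2 to 14, 6 to 16 and 0 to 1 for JQ high against control, JQ high against medium, DCCO high against control, DCCO medium against control and DCCO high against medium. Fitting only the groups compared gave 128 for JQ high against medium and 2 for DCCO high against control, no filter gave 3 and the fit without the libraries with number 6 gave 16 for the latter. With the replicate block, JQ high against medium had 187, DCCO high against control 2 and DCCO high against medium 1. With group means subtracted, same-numbered libraries correlated at -0.12 to 0.15 in 15 JQ pairs (2 over 0.1) and at -0.12 to 0.39 in 11 DCCO pairs (6 over 0.1). The 0.39 was between DCCO control 1 and high dose replicate 1. These also share the number 6 in the column name, so replicate number and column number cannot be told apart in this pair. Libraries of different replicate number were not correlated for reference, so whether the replicate numbers pair the DCCO libraries was not settled. The main fits did not take the replicate numbers as pairs. The block ended the calls of ATF4 in JQ (0.0522) and SRSF5 in DCCO (0.0513, with its fold change still at -0.81) and made CHAC1 called (0.0485); fits of only the groups compared ended those of ATF4 (0.0619), GADD45A (0.0566) and GADD45B (0.0587), the last 2 between high and medium dose. The cause was not tested. Of 2263 values of 108 named list results under alternatives, 2234 were counted as unchanged and none changed sign. Unchanged meant the same direction and side of the threshold. For DCCO at the high dose against control, which carries no test, it meant the same direction and a shift under the SD within groups. Without TMM, r of CIRBP with rna_binding_protein_3_like in DCCO was -0.23 over all libraries and -0.0827 with group means subtracted, against 0.0814 and 0.54 with TMM. RBM3 rests on 38 to 102 reads per DCCO library.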
